A study of Mus musculus with 8 samples.

Results

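The mRNAs of 40 genes of the glutamate synapse were examined in the medial prefrontal cortex (mPFC) of mice exposed to maternal separation (MS). The genes encode 4 subunits of AMPA receptors, 7 of NMDA receptors, 5 of kainate receptors, 1 delta receptor, 6 metabotropic glutamate receptors, 3 vesicular transporters, 4 proteins of glutamate uptake and glutamine synthesis, 8 postsynaptic scaffold proteins and 2 subunits of the kinase CaMKII. They were chosen by name, as genes of known role at this synapse, out of 34797 gene names on the array. Earlier results of these data were known when they were chosen. All 40 were represented, by 72 probes.

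Gene expression was measured with 1 single-colour Agilent array per mouse in 4 control and 4 MS male mice of the inbred strain C3H/HeN (written C3H/Hen in the labels). MS pups were taken from the dam daily from postnatal day 2 to postnatal day 14, and the dam was exposed to chronic unpredictable stress during that time, whereas control pups stayed with undisturbed dams. All mice were weaned at postnatal day 21 and housed with others of the same sex and condition. As adults of 4 to 5 months they were tested in operant chambers for a palatable milk reward, and they were killed after a fast of 12 h, so that both groups share the tests and the fast. The mPFC was dissected as whole tissue and RNA of single animals was used without pooling. Single mice are called by their group and their labelled number (control 8.4, for example). The digit before the point is 8 in 3 controls and 7 in 3 MS mice, no digit occurs in both groups, and the labels do not explain it. If it marks a litter, the p values do not account for it. The comparison of MS with control mPFC addresses whether separation in early life leaves a difference in the adult transcriptome of this region.

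Glutamate is the main excitatory transmitter of the cortex. It is loaded into vesicles by vesicular transporters, acts on fast ionotropic receptors (AMPA, NMDA and kainate types) and on slower G-protein-coupled metabotropic receptors, and is cleared mainly by transporters of astrocytes, which convert it to glutamine. Beneath the postsynaptic membrane, scaffold proteins of the PSD-95, SAPAP, Shank and Homer families tie receptors to one another and to CaMKII, a kinase that acts in synaptic plasticity, and in the mPFC such synapses link pyramidal neurons in circuits for planning, motivation and the response to stress.

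A level is given below as a probe's log2 processed signal relative to the 75th percentile of its array, which is set to 0. A difference is a log2 fold change, MS minus control, on the same scale. Each gene is represented by its brightest probe unless another is named. Values of single arrays are listed in the order 6.2, 8.2, 8.4 and 8.5 for controls and 5.3, 7.1, 7.2 and 7.6 for MS mice.

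Each array carried 55681 probes apart from control spots, and between 61.5% and 68.9% of these exceeded background clearly on an array. On the linear scale the 75th percentile was between 586 (MS 7.1) and 888 (control 8.4), and no spot was saturated. All 8 arrays lay on 1 slide. The array of control 8.4 stood apart, with a median correlation of 0.987 with the other arrays against at least 0.993 for each of the others, and differences that it moved by over 1.5 times are given without it as well where they exceeded 0.06 in size. Markers of cortical excitatory neurons were present. All 8 genes of that list were well above background on all 8 arrays, at mean levels from -4.23 (Foxp2) to 4.27 (Tbr1). So were 9 of 10 markers of striatal projection neurons, 8 of 10 of olfactory bulb and 7 of 8 of thalamus and hypothalamus. Detection alone therefore does not set the region apart. The number of arrays limits the precision.

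The probes are 60 bases long, and those of 4 genes are shown by their first 30 bases, 5′ to 3′ on the strand of the transcript, because their values differ between probes of 1 gene. Coordinates are those of build mm9 in the array's annotation and cover the whole probe. The place of the probes in an exon or untranslated region was not analysed here. Homer1, on chromosome 13 (+ strand), has 5 probes, of which 3 are annotated to transcript variant S and 2 to variant L. Grin1 (chromosome 2, - strand) and Gria2 (chromosome 3, - strand) have probes annotated to different variants, and Grik1 (chromosome 16, - strand) had the lowest unadjusted p of the 40 genes.
Homer1 variant L, brightest probe, chr13:94174815-94174874: caggggtcagtcccatctgtgtataagtta
Homer1 variant L, second probe, chr13:94157507-94157566: gagctagctaccctcaaaggcaacaatgcc
Homer1 variant S, brightest probe, chr13:94116595-94116654: tgatagccgggcaaacactgtttatggact
Homer1 variant S, second probe, chr13:94125924-94125983: tttgacaccagaaagtatcaatgggacaga
Homer1 variant S, dimmest probe, chr13:94126009-94126068: cagaatgcattgccatttccacataggtac
Grin1 variant 2, brightest probe, chr2:25146927-25146986: aagagggctgagccttctcttctgtctgca
Grin1 variant 1, second probe, chr2:25147922-25147981: tttgcaaaaccaaaaagacacagtgctgcc
Gria2 variant 3, brightest probe, chr3:80495725-80495784: tttaatttgggggatattccttggggaaaa
Gria2 variant 1, second probe, chr3:80488858-80488917: tttcatactttacctaatggcaatctggag
Grik1 variant 1, brightest probe, chr16:87896231-87896290: gctcacatagatattacttgaggagtgaaa
Grik1, second probe, chr16:87912812-87912871: ttccttatattagcaaaatgtacagacatt

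All 40 genes were detected in the mPFC. The brightest probe of each was well above background on all 8 arrays, as were 71 of the 72 probes, the exception being the second probe of Slc17a8 on 1 MS array. Signals spanned 10.4 log2 units, from 6.27 for Camk2b to -4.10 for Grin3b, and 32 of 40 genes lay above the 75th percentile. The brightest signals after Camk2b belonged to Glul (5.48), Camk2a (4.07), Grm5 (4.03) and Slc1a3 (3.98), which encode glutamine synthetase, the other main CaMKII subunit, the group I metabotropic receptor mGluR5 and the astrocyte glutamate transporter GLAST. At the lower end stood the NMDA subunit genes Grin2d (-3.48) and Grin3b, and Homer3 (-2.92), Slc17a8 (-2.16) and Grid1 (-1.78).

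This is an order of probe signals and not of transcript amounts, since a signal also depends on the probe's sequence. In the 23 genes with more than 1 probe, the brightest and the dimmest probe of the same gene were a median of 2.83 log2 units apart, from 0.45 in Grik2 to 6.97 in Shank3. Of the 39 pairs of neighbours in the order, 24 differed by less than the larger of their SDs over the 8 arrays. The run from Shank3 to Grin2c (Shank3, Gria1, Slc17a7, Gria3 and Grin2c) spanned only levels from 2.94 to 2.92 and had no order beyond that spread. The order of the 2 brightest genes and the positions of Grik1 and below were mostly set by gaps larger than the SD, with Slc17a6 and Grid1 close to a neighbour.

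**Figure D1:**
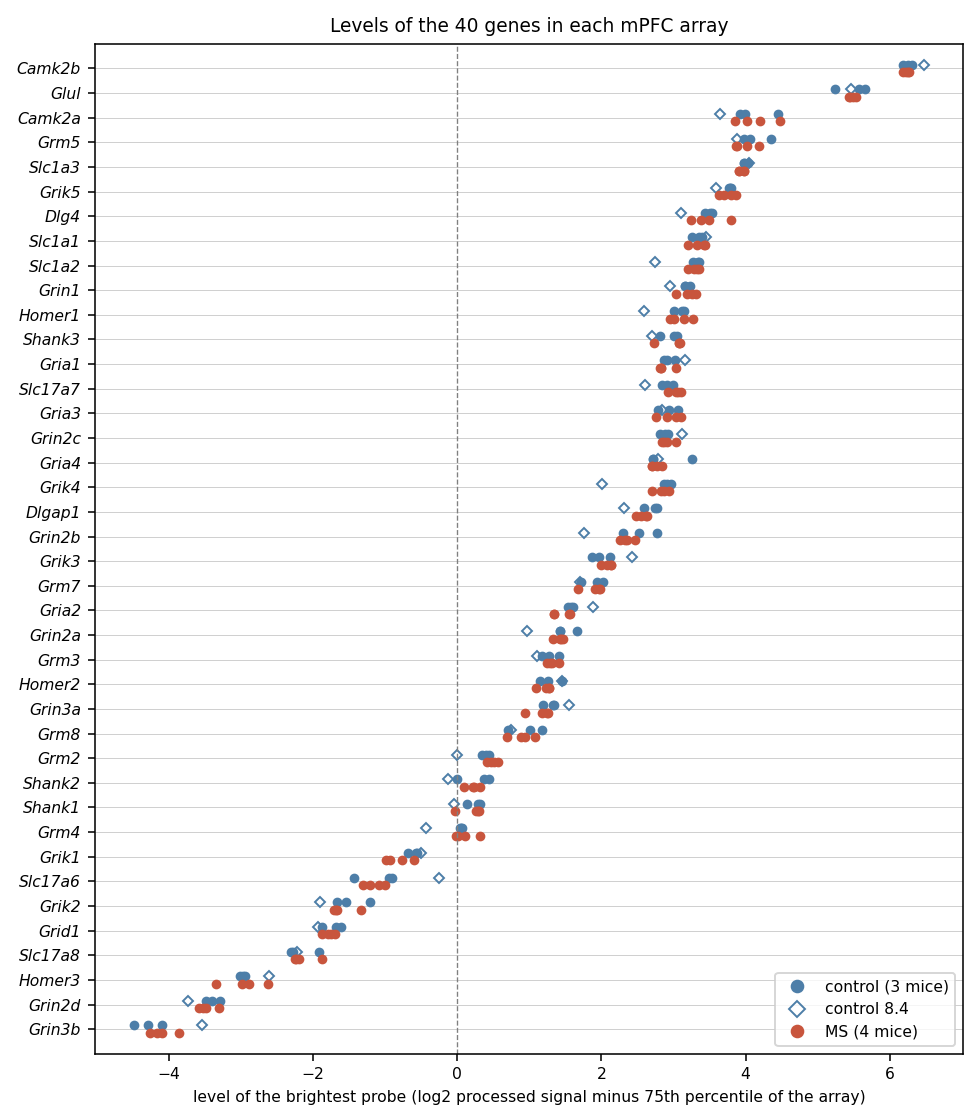
Level of the brightest probe of each of the 40 genes (x axis, log2 signal relative to the 75th percentile of its array), sorted by mean level, with blue for controls, red for MS mice and an open diamond for control 8.4. Groups lie over each other for 39 of 40 genes, and the diamond is often at the edge, on either side.

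None of the 40 genes differed between MS and control mPFC by the adjusted test. Of 34096 probes tested with limma, 0 (0%) passed a Benjamini-Hochberg adjusted p of 0.05, and so did 0 of the 72 probes of these genes (lowest adjusted p over all probes 0.9996). At an unadjusted p under 0.05 in limma there were 1 of the 40 genes, Grik1 (5 of 40 with the digit before the point of the label as a random block, where 9.62% of all genes were), against 1.94% of 23462 genes by their brightest probe, and 816 of all probes. The values of both groups did not overlap for 1 gene, Slc1a3, against 1.37% of genes. The difference was above 0 for 21 genes and below 0 for 19, and 54.1% of all genes were above 0. Because whole tissue was used, fewer cells of a type and less RNA per cell cannot be told apart in any of these values.

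The differences were small, and most were small relative to their intervals. They ranged from -0.27 (Slc17a6) to 0.20 (Slc17a7), with a median of 0.01 against 0.01 over all genes, and 37 of 40 were under 0.2 in size. The median standard error was 0.11, as over all genes. The 95% confidence interval included 0 for 39 of 40 genes, lay within 0.5 log2 units of 0 for 37 (75.6% over all genes) and within 1 log2 unit, a doubling or halving of the signal, for 40. The 3 genes with wider intervals were Slc17a6 (-0.77 to 0.23), Grik4 (-0.32 to 0.61) and Camk2a (-0.29 to 0.56). Without control 8.4 the difference turned sign for 15 genes and came closer to 0 for 25, its median was -0.03, 14 genes were above 0, and 0 had an unadjusted p under 0.05 in limma.

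**Figure D2:**
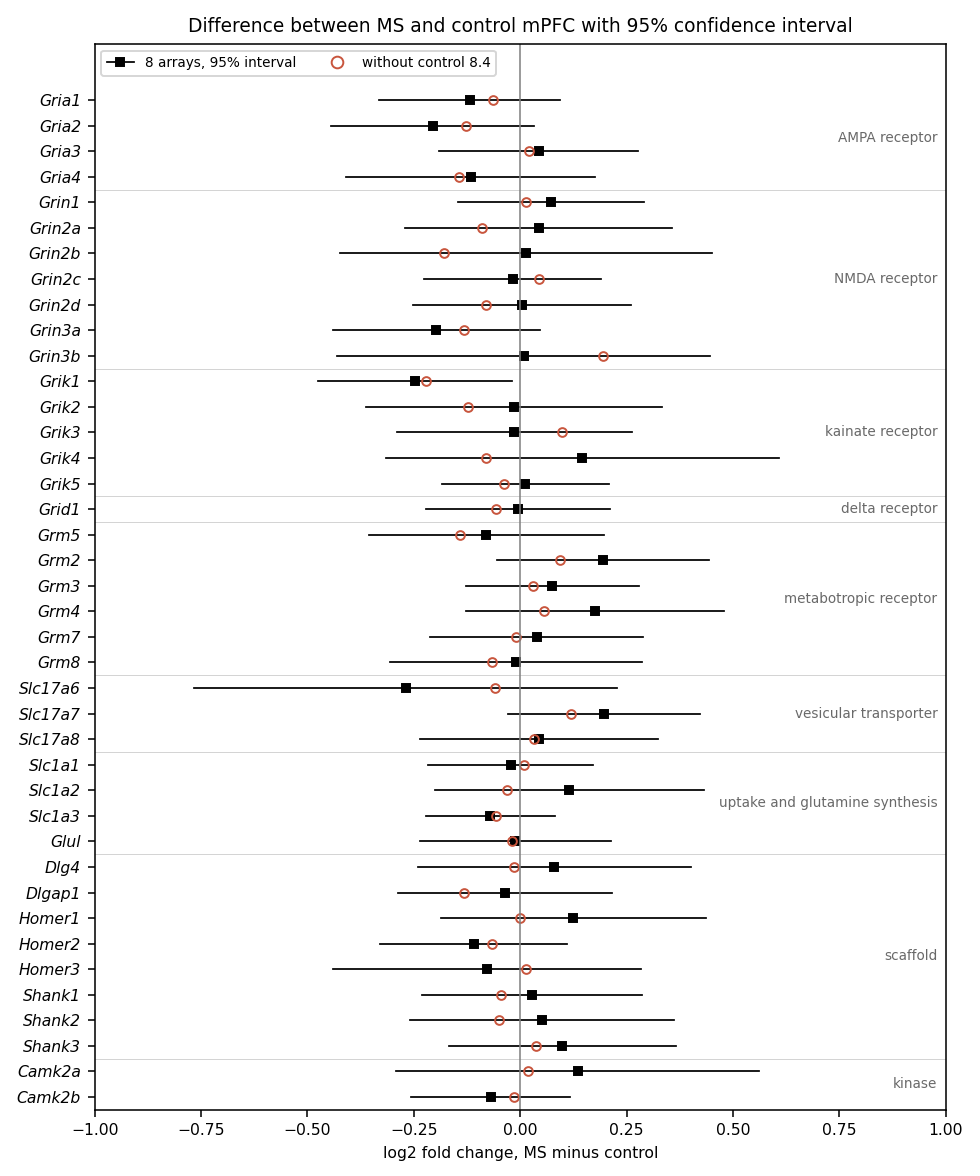
Log2 fold change, MS minus control, of the 40 genes grouped by role (black squares, 4 mice per group, bars for the 95% confidence interval of limma) and the same without control 8.4 (open red circles). The interval of Grik1, from -0.47 to -0.02, is the only one that leaves out 0, and 15 circles lie on the other side of 0 from their square.

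AMPA receptors carry most of the fast excitatory current, and their subunits GluA1 to GluA4 are encoded by Gria1 to Gria4. Of the 4 genes, 3 had lower and 1 higher means in MS mice, with 0 called and a median difference of -0.12. Gria1 levels were 2.87, 2.91, 3.16 and 3.02 in the controls, against 3.03, 2.81, 2.82 and 2.83 in the MS mice. The groups overlapped through MS 5.3, and 3 MS mice lay close together below all controls (difference -0.12, standard error 0.09, and -0.06 without control 8.4). Gria2 encodes the subunit that keeps calcium out of most AMPA receptors. Its levels were 1.58, 1.54, 1.89 and 1.60 in the controls, against 1.55, 1.34, 1.34 and 1.56 in the MS mice. Control 8.4 was highest and MS 7.1 and MS 7.2 were lowest, and the other arrays were mixed. The difference was -0.21 (95% interval -0.44 to 0.03) and -0.13 without control 8.4. The second Gria2 probe, annotated to another transcript variant, gave a difference of -0.0027 (95% interval -0.21 to 0.21), with 2.02 log2 units between the mean signals of the probes. Gria3 had a difference of 0.04 and Gria4 of -0.12. For Gria4, control 8.2 stood alone at 3.26, and the other 7 arrays lay between 2.70 and 2.84. Without control 8.2 the difference was 0.01.

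NMDA receptors need GluN1, encoded by Grin1, together with GluN2 or GluN3 subunits, and admit calcium when glutamate binds while the membrane is depolarised. Means were higher in MS mice for 5 of the 7 genes and lower for 2, and 0 were called. The levels of Grin1 were 3.16, 3.16, 2.95 and 3.23 in the controls, against 3.26, 3.03, 3.19 and 3.32 in the MS mice. They overlapped throughout (difference 0.07, 95% interval -0.15 to 0.29, and 0.01 without control 8.4). Grin2a, for the GluN2A subunit of mature synapses, had levels of 1.43, 1.43, 0.97 and 1.66 in the controls, against 1.44, 1.32, 1.43 and 1.47 in the MS mice. Control 8.4 was lowest and control 8.5 highest, with all MS values between them. Grin2b, for GluN2B, which prevails early in development, had levels of 2.51, 2.30, 1.76 and 2.77 in the controls, against 2.47, 2.25, 2.35 and 2.32 in the MS mice. Its extremes were the same 2 control arrays. The difference was 0.04 for Grin2a and 0.01 for Grin2b, and without control 8.4 it was -0.09 and -0.18. Grin3a encodes GluN3A, a subunit that lowers the calcium flow of the receptor. Its levels of 1.32, 1.34, 1.55 and 1.19 in the controls, against 1.26, 1.17, 1.24 and 0.94 in the MS mice, overlapped between control 8.5 and MS 5.3 and 7.2. The difference was -0.20 (95% interval -0.44 to 0.05), and -0.13 without control 8.4 or without MS 7.6. Grin2c, Grin2d and Grin3b had differences of -0.02, 0.00 and 0.01, and those of Grin2d and Grin3b were -0.08 and 0.19 without control 8.4.

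Kainate receptors, built from GluK1 to GluK5, act before and after the synapse and modulate release. Of their 5 genes, 2 had higher and 3 lower means in MS mice. Grik1, which encodes GluK1, had levels of -0.56, -0.68, -0.50 and -0.57 in the controls, against -0.60, -0.77, -0.94 and -0.99 in the MS mice. MS 7.1, 7.2 and 7.6 lay below all controls, and MS 5.3 lay among them. The group means were -0.58 ± 0.08 and -0.83 ± 0.17 (SD, n = 4 each), a difference of -0.25 (standard error 0.10) and a ratio of 0.843. Its unadjusted p in limma was 0.0372 and its adjusted p 0.9996. Without control 8.4 the difference was -0.22 and the unadjusted limma p 0.0757. The second Grik1 probe gave -0.12, and -0.07 without control 8.4. Grik4, for the kainate receptor subunit GluK4, had a level of 2.00 in control 8.4 and of 2.70 to 2.96 on the other 7 arrays. Its difference was 0.15 with that array and -0.08 without it. Grik2, Grik3 and Grik5 had differences of -0.01, -0.01 and 0.01, and Grid1, for the delta receptor GluD1, had a difference of -0.0048. Without control 8.4 those of Grik2 and Grik3 were -0.12 and 0.10. The second Grik2 probe gave -0.23 (95% interval -0.51 to 0.05), and the same without control 8.4.

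Metabotropic receptors signal through G proteins. The gene of the group I receptor mGluR5, Grm5, had levels of 4.06, 3.98, 3.88 and 4.35 in the controls, against 4.19, 3.86, 4.02 and 3.89 in the MS mice, with the groups fully mixed (difference -0.08, which was -0.14 without control 8.4 and 0.01 without control 8.5). Of the 6 genes, 4 had higher means in MS mice and 2 lower ones. Grm2, for the group II receptor mGluR2, a presynaptic brake on release, had levels of 0.44, 0.40, -0.01 and 0.35 in the controls, against 0.57, 0.41, 0.51 and 0.47 in the MS mice. Control 8.4 was lowest and 3 MS mice were above all controls, while MS 7.1 lay between 2 controls. The difference was 0.20 (95% interval -0.05 to 0.44) and 0.09 without control 8.4. Grm4, for a group III receptor, had levels of 0.06, 0.05, -0.44 and 0.03 in the controls, against 0.31, 0.10, 0.01 and -0.01 in the MS mice. One array, control 8.4, lay far below the other 7, and the difference of 0.18 was 0.06 without it. The group II gene Grm3 had a difference of 0.08 (0.03 without control 8.4), and the group III genes Grm7 and Grm8 had differences of 0.04 and -0.01. That of Grm8 was -0.07 without control 8.4.

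The vesicular transporters VGLUT1 (Slc17a7), VGLUT2 (Slc17a6) and VGLUT3 (Slc17a8) load glutamate into vesicles. VGLUT1 is the form of most cortical pyramidal neurons and VGLUT2 that of thalamic and other subcortical inputs, whose cell bodies lie elsewhere. Slc17a7 levels were 2.91, 2.99, 2.60 and 2.84 in the controls, against 3.10, 2.92, 3.07 and 3.03 in the MS mice. Of the MS mice, 3 lay above all controls, and MS 7.1 lay between controls 6.2 and 8.2. The means were 2.83 ± 0.17 and 3.03 ± 0.08 (SD, n = 4 each), and the difference of 0.20 (95% interval -0.03 to 0.42) was the highest of the 40 genes with all arrays. Without control 8.4 it was 0.12, and that of Grin3b was then the highest at 0.19. Slc17a6 levels were -1.44, -0.94, -0.25 and -0.91 in the controls, against -1.31, -1.21, -1.09 and -1.0 in the MS mice. The 4 MS values lay within the range of the controls, which ran from control 6.2 to control 8.4. The difference, -0.27 (95% interval -0.77 to 0.23), was the lowest of the 40 genes with all arrays. It was -0.06 without control 8.4 and -0.45 without control 6.2. Slc17a8 had a difference of 0.04.

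Glutamate is taken up by GLT-1 (Slc1a2) and GLAST (Slc1a3) of astrocytes and by EAAC1 (Slc1a1) of neurons, and glutamine synthetase (Glul) turns it into glutamine. The levels of Slc1a2 were 3.28, 3.34, 2.74 and 3.36 in the controls, against 3.29, 3.33, 3.35 and 3.20 in the MS mice. Apart from control 8.4, the 7 arrays lay between 3.20 and 3.36, and the difference was 0.11 with it and -0.03 without it. Slc1a3 levels were 3.98, 3.98, 4.05 and 4.03 in the controls, against 3.98, 3.91, 3.90 and 3.97 in the MS mice. On this scale it was the only gene whose groups did not overlap, while in the authors' log2 table its groups overlapped and those of Grm2 did not. Here the highest MS value lay just under the lowest control values, and all are 3.98 at this rounding. The difference was -0.07 (95% interval -0.22 to 0.08; unadjusted limma p 0.317), or a ratio of 0.952. Glul levels were 5.66, 5.24, 5.46 and 5.58 in the controls, against 5.53, 5.44, 5.49 and 5.44 in the MS mice. The MS values lay inside the control range (difference -0.01), and Slc1a1 had a difference of -0.02. The 8 markers of astrocytes, scored as the mean deviation from the 8-array mean, ranged from -0.10 to 0.20 in controls and from -0.15 to 0.12 in MS mice.

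Of the 8 scaffold genes, 5 had higher and 3 lower means in MS mice, 0 were called, and the median difference was 0.04. Dlg4 encodes PSD-95, the main scaffold under AMPA and NMDA receptors. Its levels were 3.43, 3.53, 3.11 and 3.51 in the controls, against 3.79, 3.38, 3.24 and 3.49 in the MS mice. MS 5.3 was highest and control 8.4 lowest, and the other 6 arrays were mixed (difference 0.08, and -0.02 without control 8.4 or without MS 5.3). Homer1 links metabotropic receptors to Shank proteins. Its levels were 3.01, 3.12, 2.59 and 3.14 in the controls, against 3.14, 2.95, 3.0 and 3.27 in the MS mice. Control 8.4 lay below the other 7, and the difference of 0.12 came to 0 within 2 decimals without it. Homer2 and Homer3 had differences of -0.11 and -0.08, and Shank1, Shank2 and Shank3, which lie deeper in the postsynaptic density, of 0.03, 0.05 and 0.10, with Dlgap1, for the linker SAPAP1 between PSD-95 and Shank, at -0.04. Without control 8.4 those of Homer2, Homer3, Shank3 and Dlgap1 were -0.07, 0.01, 0.04 and -0.13.

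CaMKII binds NMDA receptors and phosphorylates AMPA receptors. The levels of Camk2a were 3.99, 4.45, 3.65 and 3.92 in the controls, against 4.48, 3.86, 4.20 and 4.01 in the MS mice. The groups were mixed, with MS 5.3 and control 8.2 at the top and control 8.4 and MS 7.1 at the bottom. The difference of 0.14 (95% interval -0.29 to 0.56) was 0.02 without control 8.4 or without MS 5.3, and 0.23 and 0.28 without MS 7.1 and control 8.2. Camk2b, by contrast, had SDs of 0.12 in controls and 0.04 in MS mice, and a difference of -0.07, which was -0.01 without control 8.4 and -0.11 without control 8.2.

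Much of the spread among these genes was that of 1 array. Control 8.4 was the lowest of the 8 arrays for 20 of the 40 genes, against 31.8% of all genes, and the highest for 12, against 19% of all genes. Relative to the mean of the other 3 controls, its lowest genes were Grik4 (-0.91), Grin2b (-0.77), Slc1a2 (-0.58) and Grin2a (-0.54). Its highest were Slc17a6 (0.84), Grin3b (0.75) and Grik3 (0.44). Of 8 scaffold genes 6 were lowest there and 1 highest, of 7 NMDA receptor genes 4 were lowest and 3 highest, and of 4 AMPA receptor genes 0 were lowest and 2 highest. The SD of the controls was larger than that of MS mice for 30 of 40 genes (61.4% of all genes), with medians of 0.18 and 0.12. Without control 8.4 it was larger for 19 of 40 (44.9% of all genes).

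Markers of neighbouring regions also stood apart on that array. The score (mean deviation from the 8-array mean, in log2 units) of 10 markers of striatal projection neurons was 1.30 in control 8.4, against -0.24 to -0.07 in the other controls and -0.32 to -0.05 in MS mice. All 10 had lower means in MS mice with that array and 5 of 10 without it, with score differences of -0.39 and -0.02. Of 10 olfactory bulb markers, 8 were tested and all 8 had lower means in MS mice, a direction that rested on that array, since without it 2 of 8 did and the score difference went from -0.67 to 0.08, while Lhx5 and Eomes, which were above background on 1 and 4 arrays, were not tested. Their score reached 2.57 on the array of control 8.4, followed by MS 7.6 (1.36) and control 8.5 (0.76), and lay from -1.12 to -0.62 on the other 5. The score of the 8 markers of cortical excitatory neurons was -0.32 in control 8.4 and -0.09 to 0.17 elsewhere, and that of oligodendrocytes 0.32 against -0.15 to 0.04. Of the 8 oligodendrocyte markers, 7 had lower means in MS mice with that array and 2 without it. Thalamic and hypothalamic markers were highest in control 8.2 (0.62), control 8.4 (0.57) and MS 7.1 (0.56). Their score difference was -0.38 with all arrays and -0.26 without control 8.4, and 6 of 8 had lower means in MS mice both times. That of cortical excitatory neurons was 0.14 with all arrays and 0.06 without control 8.4, with 1 and 2 of the 8 markers lower in MS mice. Scores of interneurons (-0.13 to 0.15), microglia (-0.07 to 0.06) and vascular and meningeal cells (-0.35 to 0.29) spanned less than 1 log2 unit over the 8 arrays. That of interneurons was highest in control 8.4, but its markers were split. Gad1 (5.20), Gad2 (3.92), Slc32a1 (5.76) and Npy (3.41) were highest on that array. Pvalb (2.61) and Vip (1.12) were lowest there, and Sst and Lhx6 lay within the range of the other arrays. The part of these markers in the values of the 40 genes was not tested.

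**Figure D3:**
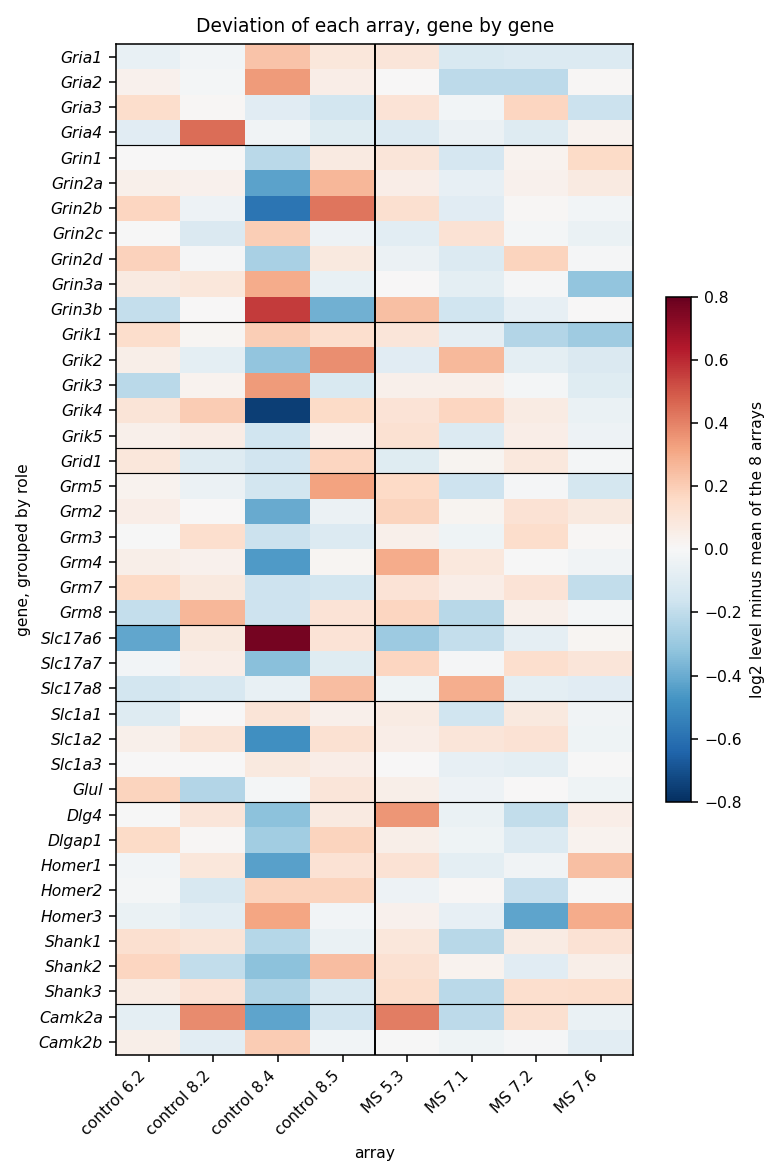
Deviation of each array (columns, controls left of the line and MS mice right of it) from the mean of the 8 arrays for each of the 40 genes (rows, grouped by role), in log2 units, red above and blue below the mean. Control 8.4 holds the darkest cells on both sides, from -0.76 for Grik4 to 0.77 for Slc17a6, and no block of rows separates the MS columns from the control columns.

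Differences between genes of 1 array do not depend on its scaling, and 6 such pairs were compared between the groups with two-sided exact permutation tests over the 70 labellings, where the smallest possible p is 0.0286. The difference between Slc17a7 and Slc17a6 was 4.35, 3.93, 2.85 and 3.74 in the controls, against 4.42, 4.14, 4.16 and 4.03 in the MS mice. Control 6.2 lay among the MS mice, the other 3 controls lay below all of them, and control 8.4 was lowest. The means differed by 0.47 (exact p = 0.171, adjusted over the 6 pairs 0.457), and by 0.18 without control 8.4. Gria1 minus Gria2 was 1.29, 1.38, 1.27 and 1.42 in the controls, against 1.48, 1.47, 1.48 and 1.26 in the MS mice. In 3 MS mice it was above all controls and in MS 7.6 below them (mean difference 0.09, exact p = 0.229). The switch pair of NMDA receptors in development, Grin2a minus Grin2b, gave -1.08, -0.88, -0.79 and -1.11 in the controls, against -1.03, -0.93, -0.93 and -0.86 in the MS mice. Although both genes were low in control 8.4, their difference there was the highest of all. The groups differed by 0.03 (exact p = 0.743), and by 0.09 without control 8.4. Camk2a minus Camk2b differed by 0.20 (exact p = 0.457), Slc1a2 minus Slc1a3 by 0.19 (exact p = 0.343) and Grm2 minus Grm3 by 0.12 (exact p = 0.2). Without control 8.4 these 3 differences were 0.03, 0.03 and 0.06. No pair passed the adjusted threshold.

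**Figure D4:**
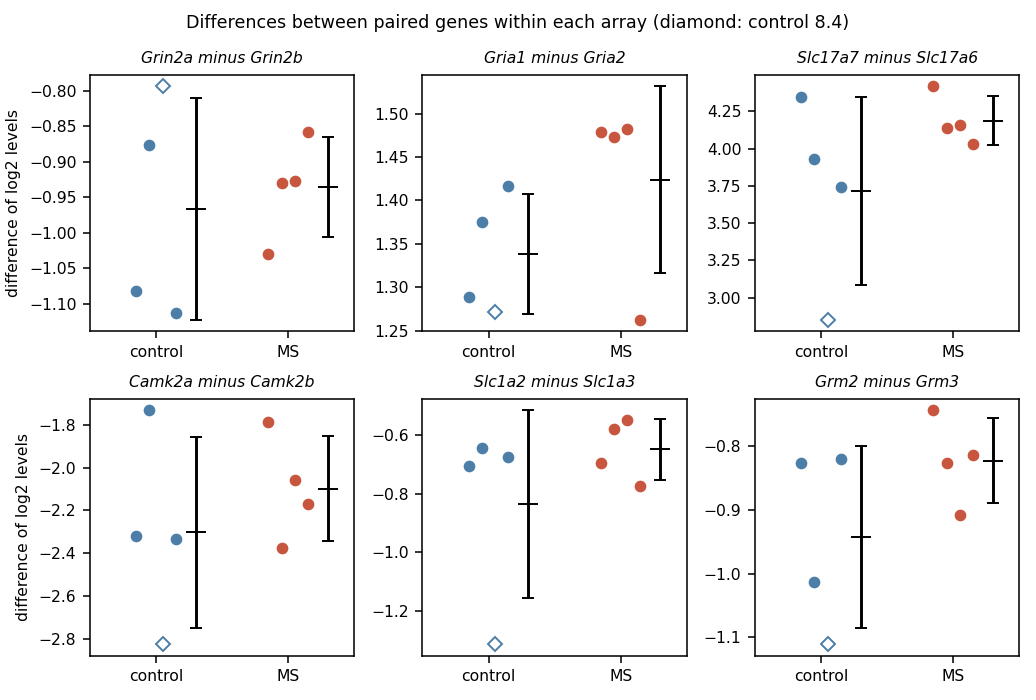
Difference of log2 levels within each array (y axis) for 6 pairs of genes, with blue for controls, red for MS mice, an open diamond for control 8.4 and black marks for the group mean and SD (4 mice each). The groups overlap in all 6 panels, and the diamond is the lowest point in 4 of them and the highest for Grin2a minus Grin2b.

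With all arrays, probes of the same gene mostly had differences of 1 sign. Of the 23 genes with more than 1 probe, 17 had all of them on the same side of 0. This agreement rested in part on control 8.4. Without that array, probes of Gria2, Gria3, Grin2a, Grik3, Slc1a2, Homer1, Homer2, Homer3, Shank2 and Camk2a had differences of both signs. Several of these lay close to 0. Probes of Camk2b, Dlgap1, Grm4 and Grm5, which had both signs with all arrays, then had 1. Those of Shank1 and Slc17a8 had both signs with all arrays and also without control 8.4. With all arrays, the 4 differences of largest size belonged to dimmer probes, of Grin2a, Shank3, Grin1 and Homer3. The second probe of Grin2a gave 0.43 (95% interval -0.15 to 1.0) where the brightest gave 0.04. Without control 8.4 the second probe gave 0.28 and the brightest -0.09. Levels of the second probe were -1.50, -1.96, -2.19 and -1.37 in the controls, against -1.94, -0.94, -1.38 and -1.06 in the MS mice. MS 7.1 and 7.6 lay above all controls, MS 7.2 just under control 8.5, and MS 5.3 among the others. The second probe of Shank3 gave 0.35 and that of Grin1 0.33, against 0.10 and 0.07 for their brightest probes. The second probe of Homer3 had a difference of -0.32 and was, beside the brightest of Grik1, the only 1 of the 72 with an unadjusted p under 0.05 in limma (0.0364, adjusted p 0.9996). Its levels were -4.80, -4.39, -4.73 and -4.24 in the controls, against -4.85, -4.86, -4.95 and -4.79 in the MS mice, where only control 6.2 and MS 7.6 crossed.

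**Figure D5:**
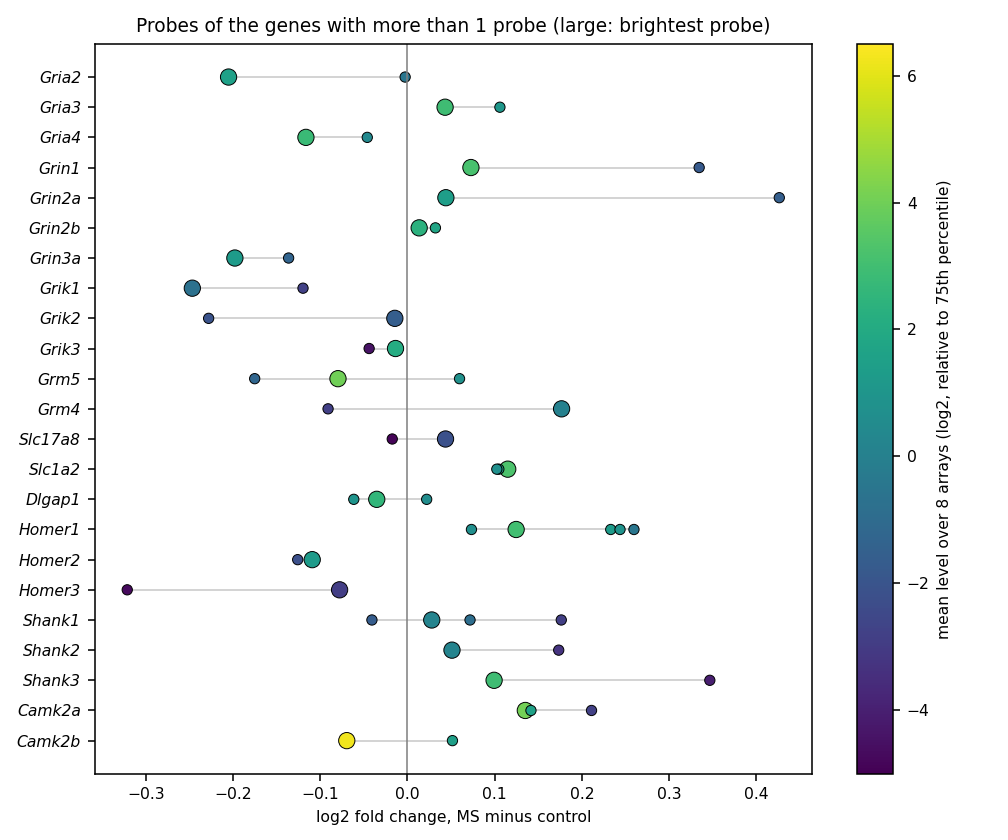
Log2 fold change, MS minus control (x axis, 4 mice per group), of every probe of the 23 genes with more than 1 probe, coloured by mean level and with the brightest probe drawn large. In 17 genes all probes lie on 1 side of 0, and dim probes of Grin2a, Shank3 and Grin1 lie farthest to the right at 0.43, 0.35 and 0.33.

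Homer1 was measured by probes annotated to its variants, whose first bases are given above. The short form, which neuronal activity is known to induce, lacks the coiled coil by which the long forms join receptors and scaffold. Whether the probes annotated to variant S also match variant L was not analysed here. Their mean and its difference from the L probes are therefore not a measure of the short form alone. The mean over the 3 variant S probes was 0.36, 0.73, -0.24 and 0.92 in the controls, against 0.67, 0.62, 0.42 and 1.04 in the MS mice. For the 2 variant L probes it was 1.87, 1.87, 1.35 and 2.09 in the controls, against 2.00, 1.74, 1.77 and 2.07 in the MS mice. Both were lowest in control 8.4, and control and MS values overlapped for both. The difference S minus L was -1.35 ± 0.23 in controls and -1.21 ± 0.16 in MS mice (SD, n = 4 each, exact permutation p = 0.343). It was 0.15 higher in MS mice with all arrays and 0.07 higher without control 8.4. This measure was chosen after the values of the probes were seen.

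In 14 transcripts of these genes, 2 probes at least 500 bases apart allowed the upstream probe to be set against the downstream one within each array, a measure also chosen after the values were seen. Relative to the 8-array mean, the median of this difference over the 14 transcripts was lowest in control 8.4 (-0.25) and control 8.2 (-0.16) and highest in control 8.5 (0.26) and MS 7.1 (0.21). The other 4 arrays lay between -0.05 and 0.03. Over 2529 transcripts of all genes the ends were the same 2 arrays at the lower side, -0.21 and -0.06, and MS 7.1 at 0.14 and control 8.5 at 0.09 at the upper side. The dim second probe of Grin2a lies upstream of the brightest, and its difference from it was highest in MS 7.1 (-2.26) and lowest in control 8.2 (-3.39). The part of this measure in the differences between probes was not tested.

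Other genes of the glutamate synapse gave the same count of calls. Of 56 listed (further receptors, auxiliary subunits, trafficking, metabolism, scaffold and signalling among them), 55 were on the array and 54 were tested. By the adjusted test in limma 0 were higher and 0 were lower, 0 had an unadjusted p under 0.05 (1.94% of all genes), and the means were higher in MS mice for 34 and lower for 20, with a median difference of 0.05. The groups did not overlap for 1 of the 54, against 1.37% of all genes. It was Camk2g, a further CaMKII subunit. Its levels were 5.47, 5.47, 5.41 and 5.48 in the controls, against 5.53, 5.68, 5.64 and 5.52 in the MS mice, all MS values above all controls (difference 0.13, 95% interval -0.03 to 0.30; unadjusted limma p 0.0979). The next lowest unadjusted p values belonged to Dlgap2, for a scaffold protein related to Dlgap1 (difference 0.23), and Cacng2, for the AMPA receptor auxiliary subunit stargazin (0.25). Both were lowest in control 8.4 and had differences of 0.12 and 0.11 without it.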

How the data were processed

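Total RNA (200 ng per mouse) of the mPFC of 8 mice was labelled with Cy3 and hybridised to Agilent 8x60K mouse arrays, 1 array per mouse on 1 slide. The authors deposited scanner output of Agilent Feature Extraction (10.10.1.1 per the submitters' notes), whose processed intensity is background-subtracted and detrended but not normalised between arrays. The study's methods and the file headers give different design numbers for the array, and the headers, with build mm9, were used. The authors also deposited a table of log2 values of 34137 probes normalised between arrays, of which 32944 were tested here. Each of its columns correlated with its own array at 0.9999 and with another at 0.9974 at most. The rule that selected its probes is not stated.

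From 62976 spots per array, 3671 control spots and outlier spots (0.255% to 0.304%) were left out, spots of a probe were averaged over 55681 probes, and the log2 processed signal was scaled to the 75th percentile of each array. Probes entered the test if every array of the controls, or every array of the MS mice, had them well above background. Groups were taken from the labels, which name separate individuals. MS and control were compared with limma 3.58.1 (lmFit and eBayes, R 4.3.3, statmod 1.5.0) with no covariate (the study's methods name lmFit and contrasts between conditions and mention no covariate), and p values were adjusted by Benjamini-Hochberg over all 34096 tested probes at a false discovery rate of 0.05. Array precision is limited by the number of arrays and, for dim probes, by the signal over background. Differences within an array were compared by two-sided exact permutation of the 70 labellings (Python 3.11.15, pandas 2.3.3, matplotlib 3.10.9). The fit was tested on simulated data.

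All 40 genes are accounted for. Values of single arrays are given for a set list of 14 genes (Gria1, Gria2, Grin1, Grin2a, Grin2b, Grm5, Slc17a6, Slc17a7, Slc1a2, Slc1a3, Glul, Dlg4, Homer1 and Camk2a), for genes whose groups did not overlap and for the 6 genes with the lowest unadjusted p. Of the further synapse genes, those with non-overlapping groups and the 4 with the lowest unadjusted p are named, except 1 that is not reported here. Other probes and arrays named with a value were picked after their values were seen. The genes, marker lists and pairs were chosen with earlier results of these data known. Among the 72 probes, 66 had an accession among the RefSeq genes of assembly GRCm38.p6, all 66 with the same symbol. On the array Drd1 is named Drd1a. The 18 alternatives covered scaling, background correction, filter, probe choice, values normalised by the authors, array weights, slide position, the number before the point of the label, and leaving out each array. The comparison of probes annotated to Homer1 variants and that of probe positions were chosen after the values were seen.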

Additional observations from a re-analysis of the deposited data

Results flagged for a closer look

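In 13 of 92 groups of 4 mice (the 40 genes and 6 pairs, in controls and in MS mice), 1 mouse lay far from the other 3 relative to the range of the group by Dixon's criterion at the 95% level. Chance gives about 1 in 20, or 4.6 groups. The groups share the same arrays and the pairs are built from the genes, so they are not independent. The count therefore does not measure an excess over chance. Control 8.4 accounted for 6 of them and MS 7.1 for 4.

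Control 8.4 lay below the other controls for Grik4 (2.00, nearest other 2.86), Grik5 (3.59, nearest 3.78), Grm4 (-0.44, nearest 0.03) and Slc1a2 (2.74, nearest 3.28), and above them for Homer3 (-2.61, nearest -2.95). Its difference between Slc1a2 and Slc1a3 was -1.31, the nearest other control being at -0.71. Control 8.2 lay above the other controls for Gria4 (3.26, nearest 2.78).

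MS 7.1 lay above the other MS mice for Grik2 (-1.33, nearest -1.67) and Slc17a8 (-1.87, nearest -2.20), and below them for Shank1 (-0.0327, nearest 0.25) and Shank3 (2.73, nearest 3.07). MS 5.3 lay above the other MS mice for Gria1 (3.03, nearest 2.83). MS 7.6 had the lowest Gria1 minus Gria2 of the MS mice (1.26, nearest 1.47). Causes of these values were not tested.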

How the results depend on the processing

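Under all 18 alternatives 0 of the 40 genes passed the adjusted threshold in limma (lowest adjusted p of any gene 0.434, with the number before the point of the label as a random block, whose estimated correlation was -0.22). The sign of the difference was the same in all alternatives for 15 genes, among them Gria1, Gria2, Grik1, Grin3a, Grm2, Slc17a6, Slc17a7 and Slc1a3. Of 719 recomputed differences of single genes, 2 moved by more than 1 SD. The number of genes whose groups did not overlap was 0 with the median of the array in place of its 75th percentile, 2 (Grin3a and Slc1a3) with the mean over the probes of a gene, and 1 to 4 when single arrays were left out, where fewer arrays make such separation more frequent for any gene. It was 4 without MS 7.1 (Grm2, Shank3, Slc17a7 and Slc1a3, against 3% of all genes) and without control 8.2 (Gria2, Grik1, Slc17a7 and Slc1a3, against 6.13%), 3 without control 6.2 (against 3.5%) and without MS 5.3 (against 4.55%), and 2 without control 8.5 (against 3.21%). In the authors' table the 1 such gene was Grm2 in place of Slc1a3. At an unadjusted p under 0.05 in limma there were 5 genes with the random block (Gria2, Grik1, Grin3a, Grm2 and Slc17a7, against 9.62% of all genes), 2 without control 8.2 and 2 with normexp (Grik1 and Slc17a7 in both, against 3.98% and 1.73%), and 1 or 0 under each other alternative, which was Slc17a7 in the authors' table and Slc17a6 without control 6.2. Gria1 minus Gria2 turned to -0.0152 (exact permutation p = 0.743) with the mean over probes. Grin2a minus Grin2b was 0.21 (exact permutation p = 0.2) with the mean over probes. It ranged from -0.0184 to 0.0883 when single arrays were left out and was below 0 without control 6.2 (-0.0082) and without control 8.5 (-0.0184). Slc17a7 minus Slc17a6 ranged from 0.18 (without control 8.4) to 0.68 (without control 6.2, exact permutation p = 0.0286, adjusted 0.171), and it could not be computed from the authors' table, where Slc17a6 was not found. The causes were not tested. No paired analysis was possible because the groups share no replicate numbers. Dim probes, such as those of Grin3b, Grin2d and Homer3, lie closest to background and bear the weakest statements.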
